A study of Mus musculus with 18 samples.

Results

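The 8 genes described here, Dusp1, Dusp2, Dusp4, Dusp5, Dusp6, Dusp7, Dusp10 and Dusp16, encode dual-specificity MAP kinase phosphatases. They were picked by name from this family, without Dusp8 and Dusp9, and with earlier results of these data known. They are 8 of the 16545 genes in the expression table. All 8 passed the filter for low values in every comparison, with a lowest value of 1.66 FPKM and a highest of 543 FPKM in any library. FPKM scales a gene's fragment count by its transcript length and by the library's total, so levels could be set side by side between genes of different length.

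Purified splenic B cells of C57BL/6 mice were sequenced at 0 h and after 24 h and 48 h of culture with LPS, a bacterial lipopolysaccharide that activates B cells through Toll-like receptor signalling. The B-CKO mice were Zbtb24 loxp/loxp and the control mice (CON) Zbtb24 +/+ littermates, and by the study's methods both carried 1 allele of a B cell-restricted Cre. Each genotype had 3 replicates at each time, giving 6 groups of 3 and 18 libraries. The study asked with them whether other ZBTB family members rose to compensate for loss of the zinc-finger protein ZBTB24. It also set splenic B cells beside peritoneal B1 cells. Culture was in RPMI medium, and the LPS dose used for these libraries and the age and sex of the mice were not given in the sources used here. Deletion of Zbtb24 was thus limited to cells of the B lineage. No library cultured for 24 h or 48 h without LPS is among the 18, so time in culture and LPS cannot be told apart. By the study's methods a replicate is 1 mouse, and p-values measure the spread between replicates. At 0 h that spread includes differences that same-numbered libraries of both genotypes shared, so it is not only a spread between mice.

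MAP kinases (ERK, JNK and p38) carry signals from surface receptors, including the B cell receptor and Toll-like receptors, and are switched on by paired phosphorylation of a threonine and a tyrosine in their activation loop. Dual-specificity MAP kinase phosphatases remove both phosphates. Several of them are themselves immediate early genes whose transcription depends on MAP kinase activity, which closes a negative feedback loop. Dusp1, Dusp2 and Dusp4 encode inducible nuclear enzymes, Dusp5 a nuclear enzyme selective for ERK, Dusp6 and Dusp7 cytoplasmic enzymes selective for ERK, and Dusp10 and Dusp16 enzymes that act mainly on JNK and p38.

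The libraries carried some features that bear on all results below. Zbtb24 was lower in every B-CKO library than in every CON library at each time, at 12.5 ± 1.90 FPKM against 45.4 ± 7.24 at 0 h, 10.9 ± 0.677 against 17.6 ± 1.66 at 24 h and 10.4 ± 1.07 against 15.2 ± 1.85 at 48 h (mean ± SD, n = 3). Zbtb24 did not pass over all genes (limma, B-CKO against CON, adjusted p = 0.120 at 0 h, 0.0586 at 24 h and 0.267 at 48 h). By the study's methods the loxp sites flank exon 2 of Zbtb24, so transcript from other exons may still count towards its FPKM. The part of such transcript in the B-CKO values was not tested. B cell markers summed to 2045 to 5230 FPKM per library, T cell markers to 9.04 to 31.9, myeloid markers to 3.83 to 11.9, erythroid markers to 7.51 to 71.1 and plasma cell markers to 71.9 to 249.7. No marker of the B or T cell list was at 0 in a whole group, while up to 3 of the 8 myeloid and up to 3 of the 6 erythroid markers were. The table gives no fragment counts. Steps in the lowest values put the relative depth of the libraries at 0.891 to 0.912 at 0 h and 1.02 to 1.08 later. At 0 h the replicates differed more than later, with numbers 1 and 3 the least alike in both genotypes (r = 0.986 in CON and 0.990 in B-CKO across genes), and the median SD of genes at 1 FPKM or more was 0.171 (CON) and 0.159 (B-CKO) on the log2 scale, against 0.0537 to 0.0849 in the 4 later groups. In bulk RNA, fewer cells of a type and less RNA per cell cannot be told apart.

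The phosphatase mRNAs differed widely in level at 0 h. Their means in CON ran from 9.57 FPKM for Dusp7, above 62.8% of the 16545 genes, to 304 FPKM for Dusp2, above 98.8%. The 8 genes summed to 638 ± 168 FPKM in CON and 605 ± 96.3 in B-CKO at 0 h, to 90.7 ± 2.13 and 77.2 ± 2.27 at 24 h, and to 92.3 ± 3.12 and 84.4 ± 5.44 at 48 h (mean ± SD, n = 3). Dusp2 had the highest mean of the 8 in all 6 groups and made up 45.9% to 47.6% of the summed FPKM at 0 h, 51.8% to 53.2% at 24 h and 35.0% to 40.6% at 48 h. Dusp1 was second at 0 h, with 22.5% of the sum in CON and 23.9% in B-CKO, and supplied 2.86% and 2.97% at 24 h. Dusp7 went the other way, from the lowest mean of the 8 at 0 h to the second at 24 h.

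The order of the 8 was clearer after activation. In CON at 0 h, Dusp2 overlapped Dusp1 in FPKM, neighbours from Dusp5 through Dusp6, Dusp4, Dusp10, Dusp16 and Dusp7 overlapped in turn, and the only gap between neighbours lay between Dusp1 and Dusp5. In CON at 24 h the order was Dusp2, Dusp7, Dusp4, Dusp10, Dusp16, Dusp6, Dusp5 and Dusp1, and only the last pair overlapped. At 48 h in CON it was Dusp2, Dusp4, Dusp7, Dusp6, Dusp1, Dusp16, Dusp10 and Dusp5, and only Dusp4 and Dusp7 overlapped. In B-CKO at 24 h the overlapping neighbours were Dusp7 and Dusp4, Dusp10 and Dusp6, and Dusp1 and Dusp5. In B-CKO at 48 h they were Dusp1 and Dusp16, and Dusp5 and Dusp10. At 0 h in B-CKO, gaps lay below Dusp2, below Dusp1 and between Dusp6 and Dusp10.

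**Figure D1:**
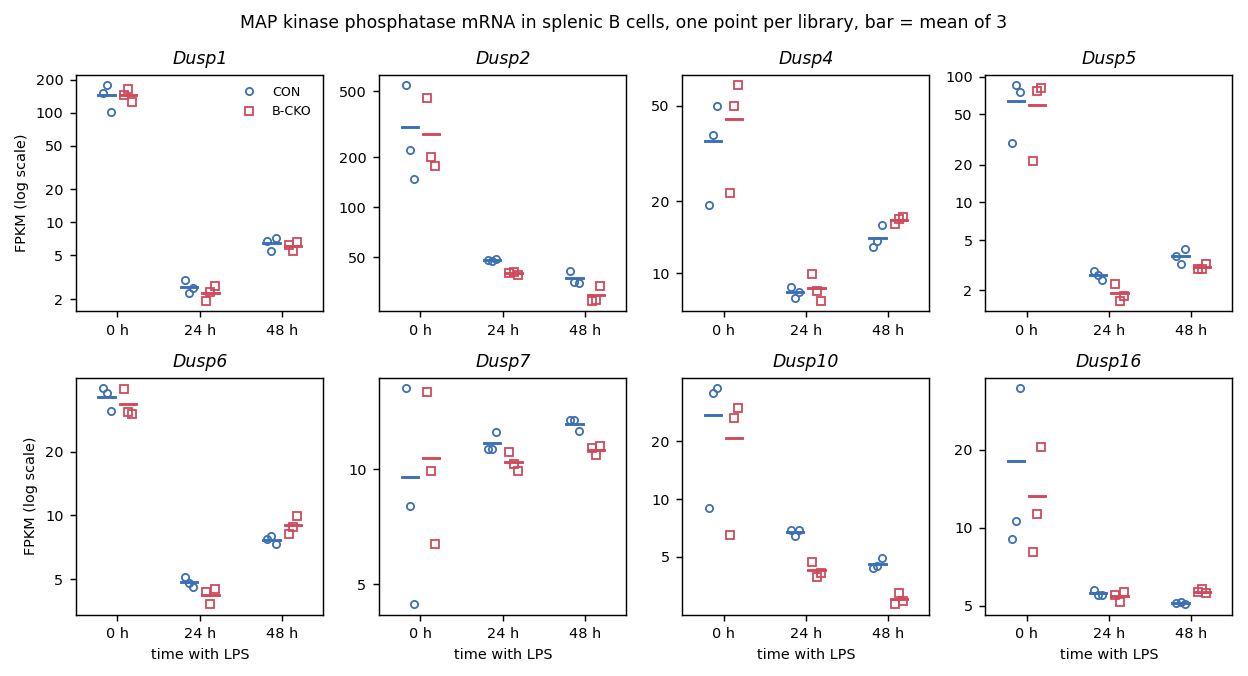
FPKM of each of the 8 genes in every library (log axis), by time after LPS, with CON and B-CKO as separate markers and a bar at each group mean. Dusp1, Dusp5 and Dusp6 sit far lower at 24 h than at 0 h in every library, Dusp7 does not, and the points spread most widely at 0 h.

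Comparison of 24 h with 0 h showed a broad loss of these mRNAs within each genotype. In CON, 6 of the 8 genes fell (adjusted p under 0.05) and none rose, where 30.7% of the 15531 genes tested fell. In B-CKO, 7 of the 8 fell and none rose, where 32.3% of all genes tested fell. The median log2 fold change of the 8 was -2.14 in CON and -2.37 in B-CKO, against -0.02 over all genes in both. The fold changes are differences of log2(FPKM + 1), tested with limma and adjusted over all genes.

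Among the inducible nuclear enzymes, Dusp1 (gene ID 19252, chr17:26505591-26508472, minus strand, GRCm38) had the steepest loss. Dusp1 measured 152, 178 and 102 FPKM in the CON replicates 1 to 3 at 0 h and 2.97, 2.26 and 2.54 at 24 h, and in B-CKO 145, 163 and 125 at 0 h and 1.94, 2.30 and 2.64 at 24 h. Every 24 h library lay more than an order of magnitude below every 0 h library. The means differed 55.6-fold in CON (log2 fold change -5.30, SE 0.208, adjusted p = 9.07e-06) and 63.1-fold in B-CKO (-5.46, SE 0.123, adjusted p = 2.24e-06).

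Dusp2 (gene ID 13537, chr2:127336159-127338377, plus strand), an enzyme abundant in activated lymphocytes, measured 543, 220.2 and 148 FPKM in CON at 0 h and 48.2, 47.4 and 49.2 at 24 h. In B-CKO it measured 455, 201 and 177 at 0 h and 40.1, 40.7 and 39.3 at 24 h. Replicate 1 was the highest at 0 h in both genotypes, and no 24 h library came near the lowest 0 h library. Dusp2 fell 6.29-fold in CON (log2 fold change -2.41, SE 0.447, adjusted p = 0.00404) and 6.94-fold in B-CKO (-2.63, SE 0.343, adjusted p = 0.000696). Without replicate 1 at 0 h the log2 fold change was -1.88 in CON (adjusted p = 0.000488) and -2.21 in B-CKO (adjusted p = 1.31e-05).

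Dusp4 (gene ID 319520, chr8:34807610-34819894) measured 19.4, 37.9 and 49.8 FPKM in CON at 0 h and 8.79, 7.91 and 8.35 at 24 h, and in B-CKO 21.6, 49.7 and 60.9 at 0 h and 9.94, 8.41 and 7.69 at 24 h. Here replicate 1 was the lowest at 0 h, and all 0 h libraries lay above all 24 h libraries. Dusp4 fell 4.28-fold in CON (log2 fold change -1.88, SE 0.321, adjusted p = 0.00285) and 5.08-fold in B-CKO (-2.10, SE 0.366, adjusted p = 0.00267).

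The ERK-selective nuclear enzyme Dusp5 (gene ID 240672, chr19:53529145-53541809, plus strand) measured 29.8, 85.2 and 75.6 FPKM in CON at 0 h and 2.83, 2.63 and 2.44 at 24 h. In B-CKO the values were 21.2, 76.8 and 80.7 at 0 h and 2.23, 1.66 and 1.79 at 24 h. Replicate 1 was again the lowest at 0 h, yet stood well above every 24 h library. Dusp5 fell 24.1-fold in CON (log2 fold change -4.02, SE 0.383, adjusted p = 0.000215) and 31.5-fold in B-CKO (-4.17, SE 0.500, adjusted p = 0.000469). The calls of Dusp1, Dusp2, Dusp4, Dusp5 and Dusp6 held in both genotypes without any 1 library. With replicate 2 of both times left out, those of Dusp2 and Dusp4 in CON (adjusted p = 0.0600 and 0.0637) and of Dusp4 in B-CKO (adjusted p = 0.0598) were lost.

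The cytoplasmic ERK phosphatases parted. Dusp6 (gene ID 67603, chr10:99263231-99267489, plus strand), a feedback inhibitor of ERK signalling, measured 39.9, 38.04 and 31.2 FPKM in CON at 0 h and 5.14, 4.80 and 4.61 at 24 h, and in B-CKO 39.8, 31.0 and 30.2 at 0 h and 4.33, 3.82 and 4.49 at 24 h. The 0 h replicates of Dusp6 lay close together and far above those at 24 h. Dusp6 fell 7.50-fold in CON (log2 fold change -2.67, SE 0.108, adjusted p = 9.52e-06) and 7.99-fold in B-CKO (-2.72, SE 0.123, adjusted p = 8.27e-06).

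Dusp7 (gene ID 235584, chr9:106368560-106375724, plus strand) measured 16.3, 8.0 and 4.45 FPKM in CON at 0 h and 11.3, 11.3 and 12.5 at 24 h. In B-CKO it measured 15.9, 9.91 and 6.36 at 0 h and 11.1, 10.3 and 9.88 at 24 h. The times overlapped in both genotypes, with replicate 1 at 0 h above and replicate 3 below all 24 h libraries. Dusp7 did not pass the test in CON (log2 fold change 0.42, SE 0.395, adjusted p = 0.405) or B-CKO (0.04, SE 0.286, adjusted p = 0.902). Without the CON 0 h replicate 1 it passed in CON, at a log2 fold change of 0.86 (adjusted p = 0.0217).

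Of the phosphatases of JNK and p38, Dusp10 (gene ID 63953, chr1:184034381-184075636, plus strand) measured 8.95, 36.0 and 37.9 FPKM in CON at 0 h and 6.87, 6.44 and 6.90 at 24 h, and in B-CKO 6.46, 26.6 and 29.8 at 0 h and 4.70, 3.92 and 4.11 at 24 h. Within each genotype all 0 h libraries exceeded all 24 h libraries, but replicate 1 did so by a small margin. Dusp10 fell 4.10-fold in CON (log2 fold change -1.65, SE 0.522, adjusted p = 0.0344) and 4.94-fold in B-CKO (-1.82, SE 0.532, adjusted p = 0.0239). Both calls held without replicate 1 at 0 h (adjusted p = 2.68e-05 in CON and 2.63e-05 in B-CKO), and were lost without any 1 of the other 5, at adjusted p of 0.0858 to 0.115 in CON and 0.0599 to 0.0864 in B-CKO.

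Dusp16 (gene ID 70686, chr6:134715468-134807063, minus strand) measured 9.03, 10.7 and 34.6 FPKM in CON at 0 h and 5.75, 5.49 and 5.50 at 24 h, and in B-CKO 8.05, 11.3 and 20.5 at 0 h and 5.51, 5.19 and 5.63 at 24 h. Every 0 h library was higher, most of all replicate 3. The change missed the threshold in CON (log2 fold change -1.29, SE 0.469, adjusted p = 0.0553) and Dusp16 fell in B-CKO (-1.05, SE 0.300, adjusted p = 0.0219). Without the CON 0 h replicate 1 the CON change passed (log2 fold change -1.63, adjusted p = 0.0308), as it did under 5 other settings (adjusted p = 0.00671 to 0.0419). With any 1 library left out, the CON log2 fold change ranged from -1.63 to -0.72. It passed in 2 of these 6 fits, and the others had adjusted p = 0.0698 to 0.129. The B-CKO call was lost without 0 h replicate 2 or any 1 of the 24 h replicates (adjusted p = 0.0541 to 0.0696).

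**Figure D2:**
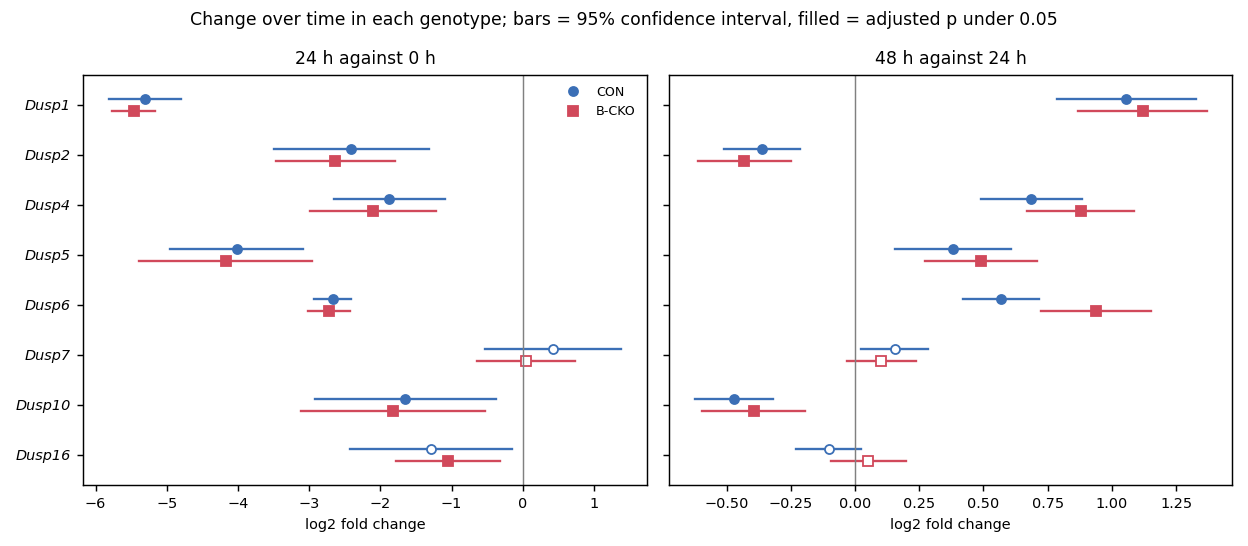
Log2 fold change of each gene, on the log2(FPKM + 1) scale, for 24 h against 0 h and 48 h against 24 h in CON and B-CKO, with 95% confidence intervals and filled markers where the limma adjusted p was under 0.05. Dusp1 and Dusp5 lie farthest left at 24 h, and Dusp7 lies within 0.42 of 0 in all 4 comparisons.

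Dusp1, Dusp2 and Dusp5 had the 3 highest means of the 8 members at 0 h. Their promoters were the only ones of the 7 available, among 8 members, to hold any of 6 motifs searched. The search covered both strands from 250 bases before to 50 bases after the RefSeq start (GRCm38.p6). The motifs were the cyclic AMP response element (TGACGTCA), the AP-1 site (TGANTCA), the E-box (CACGTG), a FOXO site (GTAAACA), the CArG box bound by serum response factor, and the NF-kappaB site. The 250 bases before each start are shown 5′ to 3′ on the gene's own strand with motif matches in capitals, from chr17:26508473-26508722 (minus strand) for Dusp1, chr2:127335909-127336158 (plus strand) for Dusp2 and chr19:53528895-53529144 (plus strand) for Dusp5.
Dusp1: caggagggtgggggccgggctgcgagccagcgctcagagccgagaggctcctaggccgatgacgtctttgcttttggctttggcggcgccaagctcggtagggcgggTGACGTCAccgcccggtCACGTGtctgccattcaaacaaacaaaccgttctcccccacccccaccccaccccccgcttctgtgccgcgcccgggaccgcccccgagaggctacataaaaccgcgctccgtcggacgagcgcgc
Dusp2: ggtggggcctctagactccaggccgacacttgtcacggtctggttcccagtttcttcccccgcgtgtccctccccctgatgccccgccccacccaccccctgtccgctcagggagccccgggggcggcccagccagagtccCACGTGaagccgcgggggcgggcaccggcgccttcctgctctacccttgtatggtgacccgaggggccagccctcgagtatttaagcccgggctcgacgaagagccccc
Dusp5: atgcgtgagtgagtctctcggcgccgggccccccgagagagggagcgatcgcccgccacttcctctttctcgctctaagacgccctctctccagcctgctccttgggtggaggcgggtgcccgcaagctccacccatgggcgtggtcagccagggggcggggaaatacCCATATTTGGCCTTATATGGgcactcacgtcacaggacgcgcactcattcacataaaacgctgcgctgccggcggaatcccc
The Dusp1 promoter held a cyclic AMP response element at -143 to -136, counted back from the start, and an E-box at -126 to -121. The Dusp2 promoter held an E-box at -109 to -104. The Dusp5 promoter held adjoining CArG boxes at -82 to -73 and -72 to -63. None of these matches overlapped another. Of 32851 RefSeq promoters of this length, 1.79% held the cyclic AMP response element, 7.15% the E-box, 1.63% the CArG box, 7.81% the AP-1 site, 3.65% the FOXO site, 4.51% the NF-kappaB site and 76.0% none of the 6. The promoters of Dusp6, Dusp7, Dusp10 and Dusp16 held none of these letters in this window, and that of Dusp4 was not searched. A match describes letters and not binding.

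Immediate early genes fell beside the phosphatases. Of 21 such genes, 19 fell and 1 rose from 0 h to 24 h in CON, where 26.7% of all genes rose, and the counts in B-CKO were 19 and 1. Among them, Fos and Fosb, encoding AP-1 subunits, had log2 fold changes of -7.55 (adjusted p = 4.97e-06) and -8.23 (adjusted p = 1.41e-05) in CON, and Nr4a1, an orphan nuclear receptor induced by antigen receptor signals, -5.61 (adjusted p = 1.08e-05). The summed FPKM of the list was 5891 to 8089 per library at 0 h, 575 to 673 at 24 h and 681 to 814 at 48 h. The part of cell handling before RNA extraction in the 0 h levels of these genes or of the phosphatases was not tested.

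Between 24 h and 48 h the phosphatases moved in both directions, and less far. In CON, 4 of the 8 rose (Dusp1, Dusp4, Dusp5 and Dusp6), where 20.1% of the 15178 genes tested rose, and 2 fell (Dusp2 and Dusp10), where 24.8% did. In B-CKO, 6 of the 8 were called, where 45.7% of the 15253 genes tested were. Of these, Dusp1, Dusp4, Dusp5 and Dusp6 rose, 4 of 8 against 21.7% of all genes, and Dusp2 and Dusp10 fell. These comparisons share their 24 h libraries with those of 24 h against 0 h.

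At 48 h Dusp1 measured 6.74, 5.52 and 7.17 FPKM in CON and 6.19, 5.55 and 6.69 in B-CKO, above all 24 h libraries and far below all 0 h libraries. It rose 2.501-fold in CON (log2 fold change 1.06, SE 0.113, adjusted p = 0.000436) and 2.68-fold in B-CKO (1.12, SE 0.105, adjusted p = 0.000198). Dusp2 measured 41.4, 35.7 and 35.3 FPKM in CON and 27.4, 27.7 and 33.5 in B-CKO, below all 24 h libraries of its genotype. It fell further in CON (log2 fold change -0.36, SE 0.0621, adjusted p = 0.00336) and in B-CKO (-0.43, SE 0.0763, adjusted p = 0.00352).

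Dusp4 measured 12.8, 13.6 and 15.9 FPKM in CON and 16.1, 16.8 and 17.2 in B-CKO at 48 h, higher than in any 24 h library. It rose 1.69-fold in CON (log2 fold change 0.69, SE 0.0826, adjusted p = 0.000716) and 1.93-fold in B-CKO (0.88, SE 0.0875, adjusted p = 0.000259). Dusp5 measured 3.78, 3.23 and 4.23 FPKM in CON and 2.98, 2.94 and 3.24 in B-CKO. It rose 1.42-fold in CON (log2 fold change 0.38, SE 0.0947, adjusted p = 0.0156) and 1.61-fold in B-CKO (0.49, SE 0.0918, adjusted p = 0.00444), and the CON call was lost without the CON 24 h replicate 3 (adjusted p = 0.0576).

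Dusp6 measured 7.70, 7.99 and 7.34 FPKM in CON and 8.21, 8.80 and 9.97 in B-CKO at 48 h. It rose 1.58-fold in CON (log2 fold change 0.57, SE 0.0619, adjusted p = 0.00047) and 2.13-fold in B-CKO (0.94, SE 0.0896, adjusted p = 0.000216). Dusp7 measured 13.4, 13.4 and 12.6 FPKM in CON and 11.4, 10.9 and 11.5 in B-CKO, and its log2 fold changes of 0.15 and 0.10 did not pass (adjusted p = 0.0585 and 0.191). In CON it passed when only genes averaging 1 FPKM or more were tested (adjusted p = 0.0341).

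Dusp10 measured 4.37, 4.46 and 4.92 FPKM in CON and 2.83, 3.21 and 2.91 in B-CKO at 48 h, below every 24 h library of the same genotype. It fell in CON (log2 fold change -0.47, SE 0.0643, adjusted p = 0.00123) and in B-CKO (-0.39, SE 0.0844, adjusted p = 0.00798). Dusp16 measured 5.12, 5.17 and 5.09 FPKM in CON and 5.63, 5.81 and 5.59 in B-CKO, and did not pass (log2 fold change -0.10, adjusted p = 0.168, and 0.05, adjusted p = 0.552). With 1 estimate of the spread over all 18 libraries, Dusp1 and Dusp6 kept their calls in both genotypes while those of Dusp2, Dusp4, Dusp5 and Dusp10 were lost (adjusted p = 0.0522 to 0.651).

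The spread at 0 h followed the replicate number in both genotypes, and it divided the 8 genes. Replicate 1 was higher than the mean of replicates 2 and 3 for Dusp2, 2.95-fold in CON and 2.41-fold in B-CKO, and for Dusp7, 2.61-fold and 1.95-fold. Replicate 1 was lower for Dusp10, 4.13-fold in CON and 4.37-fold in B-CKO, and for Dusp5, 2.70-fold and 3.72-fold. The same held for Dusp4 (2.27-fold and 2.56-fold) and for Dusp16 (2.504-fold and 1.97-fold), the latter with most of its excess in replicate 3. For Dusp1 and Dusp6, replicate 1 was 1.01-fold to 1.302-fold above that mean.

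Other activation genes split along the same libraries. Egr1, an immediate early transcription factor, measured 412, 154 and 69.4 FPKM in CON and 239, 137 and 93.2 in B-CKO at 0 h, highest in replicate 1 like Dusp2 and Dusp7. Fosl2, an AP-1 subunit, measured 0.75, 9.99 and 18.6 FPKM in CON and 1.15, 16.6 and 19.9 in B-CKO, lowest in replicate 1 like Dusp10 and Dusp5. Dusp8, a further phosphatase of JNK and p38, had the Fosl2 order, at 0.30, 3.24 and 5.58 FPKM in CON and 0.27, 3.44 and 5.52 in B-CKO. These genes were picked after their values were seen, what the replicate number marks was not given in the labels, and its part in these levels was not tested.

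**Figure D3:**
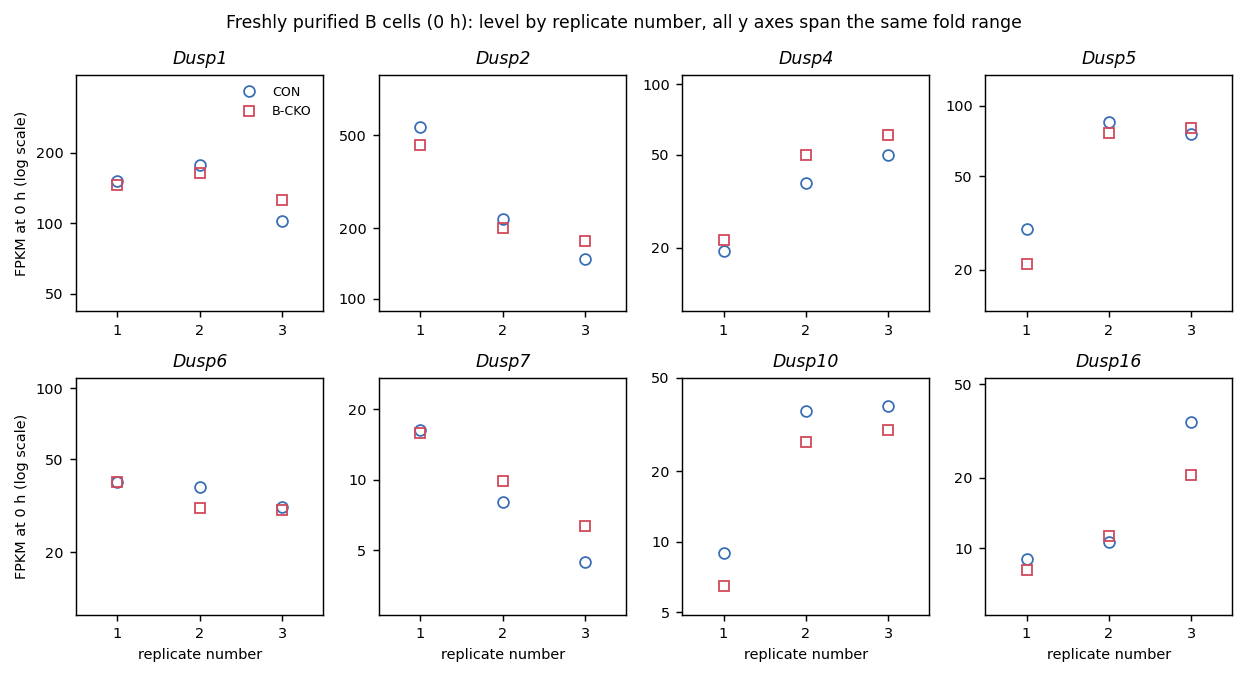
FPKM of the 8 genes in the 6 libraries at 0 h (log axis), by replicate number, with CON and B-CKO as separate markers. In both genotypes replicate 1 is the highest for Dusp2 and Dusp7 and the lowest for Dusp4, Dusp5, Dusp10 and Dusp16, while Dusp1 and Dusp6 vary by at most 1.75-fold.

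At 0 h no phosphatase passed the genotype comparison. None of the 8 had an adjusted p under 0.05 and 0 of 8 an unadjusted limma p under 0.05, where 0% and 2.00% of the 15641 genes tested did. CON and B-CKO overlapped for each of the 8. The log2 fold changes ranged from -0.39 for Dusp10 (95% CI -2.17 to 1.39) to 0.27 for Dusp4 (-0.88 to 1.42). Dusp1 (0.04, 95% CI -0.49 to 0.56) and Dusp6 (-0.11, -0.46 to 0.23) had narrower intervals. These intervals take in the differences between replicate numbers, which the genotypes shared at 0 h. In a fit blocked on that number, the intervals narrowed to -0.52 to -0.26 for Dusp10 and 0.11 to 0.43 for Dusp4, and those of the other 6 included 0. These 2 of 8 had an unadjusted limma p under 0.05 in the blocked fit, where 5.70% of all genes did, but again none of the 8 passed over all genes (adjusted p = 0.714 for Dusp10 and 0.789 for Dusp4). Within numbers, Dusp10 was lower in B-CKO in 3 of 3, by log2(FPKM + 1) differences of -0.42, -0.42 and -0.33, and Dusp4 was higher in 3 of 3.

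At 24 h Dusp2 fell in B-CKO relative to CON, the only 1 of the 8 called, where 0.0861% of the 15104 genes tested were called lower. The 3 B-CKO libraries, at 39.3 to 40.7 FPKM, lay below the 3 CON libraries, at 47.4 to 49.2, with a difference of -17.1% in the means (log2 fold change -0.26, SE 0.0256, 95% CI -0.33 to -0.20, adjusted p = 0.0389). The call was lost without any 1 of the 6 libraries (adjusted p = 0.0951 to 0.202, log2 fold change -0.28 to -0.25) and with all 18 libraries in the fit (adjusted p = 1).

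Dusp10 had the widest genotype gap of the 8 at 24 h. It measured 3.92 to 4.70 FPKM in B-CKO against 6.44 to 6.90 in CON, a difference of -37.0% in the means, and narrowly missed the threshold (log2 fold change -0.56, SE 0.0701, 95% CI -0.73 to -0.40, adjusted p = 0.0586). With a pseudocount of 0.1 FPKM it passed (adjusted p = 0.0400), as it did when only genes with a mean of 1 FPKM or more were tested (adjusted p = 0.00464). With any 1 of the 6 libraries left out it did not pass (adjusted p = 0.0935 to 0.232, log2 fold change -0.63 to -0.52).

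In all, 5 of the 8 (Dusp2, Dusp5, Dusp6, Dusp7 and Dusp10) had every B-CKO library below every CON library at 24 h, where 11.7% of all genes did, and 4 of 8 had an unadjusted limma p under 0.05 in the lower direction, where 9.51% did. Dusp5, at 1.66 to 2.23 FPKM against 2.44 to 2.83, had a log2 fold change of -0.33 (SE 0.0885, adjusted p = 0.150). Those of Dusp6 and Dusp7 were -0.17 (adjusted p = 0.310) and -0.15 (adjusted p = 0.265). Dusp1 (-0.13), Dusp4 (0.04) and Dusp16 (-0.03) overlapped between genotypes. The median log2 fold change was -0.16 over the 8 and -0.00 over all genes.

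Other mRNAs moved with the genotype at 24 h. Of all genes tested, 9.51% had an unadjusted limma p under 0.05 in the lower direction. Immediate early genes summed to 575 to 639 FPKM in B-CKO against 659.6 to 673 in CON, and 8 of the 21 had an unadjusted limma p under 0.05, each lower. B cell markers summed to 2045 to 2120 against 2351 to 2530, and 4 of the 6 had an unadjusted limma p under 0.05, each lower. The T cell sum was also lower (9.45 to 10.8 against 12.2 to 14.9), but it was mostly Lck (8.24 to 9.31 FPKM against 11.2 to 13.3), the other 7 markers were at most 0.42 FPKM in any library, and the list's median log2 fold change was 0.04. The myeloid sum was 3.83 to 4.69 against 4.96 to 5.54, with a list median of 0.01. Their part in the Dusp2 and Dusp10 differences was not tested.

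At 48 h none of the 8 was called, where 0.0460% of the 15210 genes tested were, and 5 of 8 had an unadjusted limma p under 0.05, where 7.71% did. Dusp2, Dusp7 and Dusp10 had all B-CKO libraries below all CON libraries, as 6.24% of genes did, and Dusp4, Dusp6 and Dusp16 had all B-CKO libraries above, as 4.89% did. Dusp10 again had the widest gap of the 8, at 2.83 to 3.21 FPKM in B-CKO against 4.37 to 4.92 in CON, a difference of -34.9% in the means (log2 fold change -0.49, SE 0.0810, adjusted p = 0.167). It passed when only genes with a mean of 1 FPKM or more were tested (adjusted p = 0.0423). With any 1 library left out it did not pass (adjusted p = 0.262 to 0.507).

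Dusp2 had a log2 fold change of -0.33 at 48 h (SE 0.0944, adjusted p = 0.416), with means that differed by -21.1%. For Dusp7 it was -0.20 (adjusted p = 0.383), with B-CKO at 10.9 to 11.5 FPKM and CON at 12.6 to 13.4. Dusp4 (0.24, adjusted p = 0.516), Dusp6 (0.20, adjusted p = 0.628) and Dusp16 (0.12, adjusted p = 0.734) leaned the other way. Dusp1 (-0.06) and Dusp5 (-0.22) overlapped between genotypes. Lck was again lower in every B-CKO library (8.11 to 9.51 against 11.7 to 12.2 FPKM), with a median log2 fold change of -0.01 over the 8 T cell markers, and the sums of B cell markers and of immediate early genes overlapped. The myeloid sum was lower in B-CKO (3.85 to 5.83 FPKM against 5.9 to 7.41), with a list median of -0.02. The erythroid sum was higher (11.55 to 16.27 against 9.67 to 9.93), with a list median of -0.08. Their part in the 48 h differences was not tested.

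**Figure D4:**
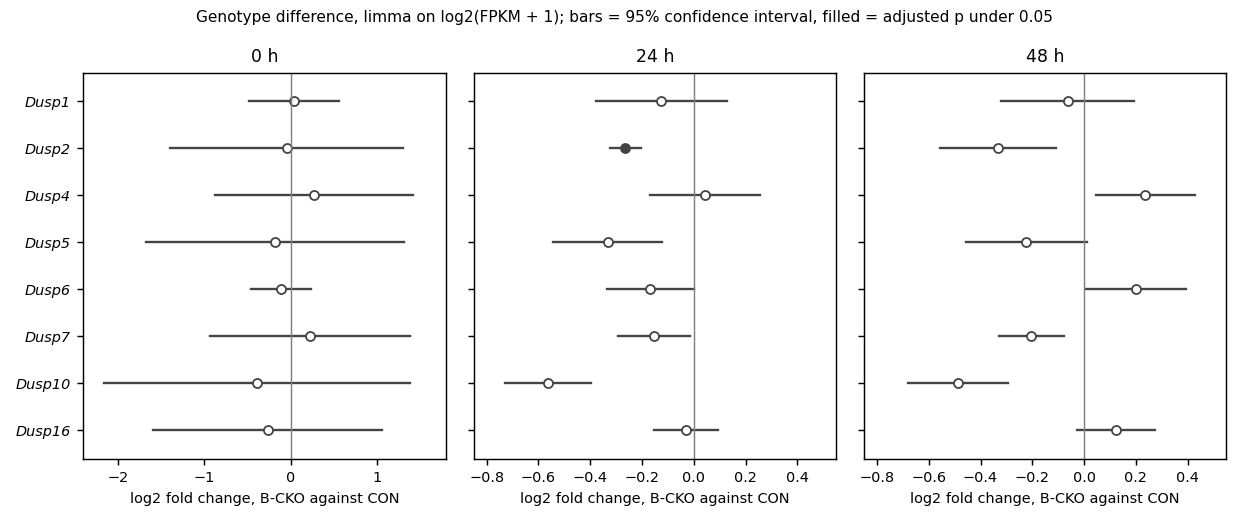
Log2 fold change of B-CKO against CON for each gene at 0 h, 24 h and 48 h, on the log2(FPKM + 1) scale, with 95% confidence intervals and a filled marker where the limma adjusted p was under 0.05. The 0 h panel has a wider axis than the other panels, Dusp2 at 24 h is the only filled marker, and Dusp10 lies farthest left at 24 h and 48 h.

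The change with time was then compared between genotypes. From 0 h to 24 h, the difference in change (B-CKO minus CON) ranged from -0.38 for Dusp7 to 0.24 for Dusp16 on the log2 scale. None of the 8 passed and 0 of 8 had an unadjusted limma p under 0.05, where 0% and 2.89% of the 16182 genes did. The interval for Dusp10 ran from -2.01 to 1.66, which takes in the spread between replicate numbers that the genotypes shared at 0 h. Within numbers, its differences in change were -0.05, -0.18 and -0.29. From 24 h to 48 h again none of the 8 passed, where 0% of the 15844 genes did, and 2 of 8 had an unadjusted limma p under 0.05, where 7.31% did. Dusp6 changed by 0.37 more in B-CKO (SE 0.108, 95% CI 0.13 to 0.61, adjusted p = 0.549), since its B-CKO values lay below CON at 24 h and above CON at 48 h. For Dusp16 the difference was 0.15 (adjusted p = 0.673).

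The rest of the MAP kinase pathway did not fall as a block from 0 h to 24 h. Over all genes tested in CON, 30.7% fell and 26.7% rose. In CON, 10 of 12 MAP kinase kinase kinases fell and 0 rose, among them Map3k1 (log2 fold change -2.01, adjusted p = 9.85e-05), which acts towards JNK, and Map3k8 (-1.27, adjusted p = 8.49e-05), which acts towards ERK. Of 7 MAP kinase kinases, 3 rose and 3 fell, with Map2k6, which activates p38, at -1.74 (adjusted p = 5.42e-05) and Map2k3, which also does, at 0.88 (adjusted p = 0.000447). Of the 9 tested MAP kinases, 2 rose and 3 fell. The p38 genes Mapk11 (-2.02, adjusted p = 0.000289) and Mapk14 (-0.73, adjusted p = 8.60e-05) were among those that fell.

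Other brakes on these kinases were mixed in CON, where 30.7% of all genes tested fell and 26.7% rose. Of 7 Sprouty and Spred genes, inhibitors of the ERK pathway, 3 fell and 1 rose, with Spry1 at -1.18 (adjusted p = 0.000222). Of 12 atypical dual-specificity phosphatases, 4 fell and 3 rose, with Dusp3 at -1.36 (adjusted p = 0.000888) and Dusp12 at 1.78 (adjusted p = 3.23e-05). Of the remaining MAP kinase phosphatases of the family, Dusp8 fell (-1.62, adjusted p = 0.0484) and Dusp9 did not pass (0.11, adjusted p = 0.0695). Of 7 tested phosphatases of the tyrosine or serine type, 2 rose and 2 fell, with Ppm1a at -0.59 (adjusted p = 0.0159). Of 10 kinases activated by MAP kinases, 4 fell and 1 rose, with Rps6ka5 at -1.49 (adjusted p = 0.000163).

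Cell type markers moved over the same interval in CON, where 30.7% of all genes tested fell and 26.7% rose. Of 6 B cell markers 4 fell and 0 rose, of 8 T cell markers 8 fell, of 8 myeloid markers 2 fell and 1 rose, of 5 tested erythroid markers 4 fell and 1 rose, and of 4 plasma cell markers 2 fell and 2 rose. In the genotype comparisons no gene of the pathway lists or the immediate early list passed at any time.

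The genes whose log2(FPKM + 1) pattern over the 18 libraries was most like that of each phosphatase were named by Pearson correlation among the 9997 genes with a mean of 1 FPKM or more. Dusp1 was closest to Csrnp1 (r = 0.998), Junb (0.997) and Foxo4 (0.996), and Dusp5 to Itprip (0.998), Irs2 (0.996) and Smad7 (0.995). Junb is an immediate early gene that encodes an AP-1 subunit. Dusp6 was closest to Cd79a (0.995), which encodes a B cell receptor subunit, then to Csrnp1 (0.994) and Tspyl1 (0.993). Dusp2 was closest to Mrgpre (0.994), Pias3 (0.993) and Rnpepl1 (0.992), and Dusp4 to Cytip (0.985), Manea (0.983) and Pik3ip1 (0.982). Dusp16 was closest to Jmy (0.991), Plcxd2 (0.980) and Fam76a (0.974), and Dusp10 to Egln2, Rabgef1 and Cdt1 (each 0.978). No gene came as close to Dusp7, whose nearest were Bcl2l12 (0.952), Cog8 (0.945) and Zfp790 (0.944). Among the 8 themselves, Dusp1 and Dusp6 had the highest correlation (0.990), followed by Dusp1 and Dusp5 (0.961), whereas Dusp7 was negatively correlated with each of the others, from -0.09 with Dusp2 to -0.78 with Dusp16. All points share libraries, depth and the contrast between 0 h and later times, so that these correlations are descriptions only.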

How the data were processed

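RNA was sequenced as paired-end reads from splenic B cells in 18 libraries. The deposited FPKM values (16545 genes, 2 decimals) were made by the authors, whose methods name bowtie2, Cufflinks and RSEM on mm10, and the submitters' processing notes list BWA and DESeq2 besides. Fragment counts were not used here, since the table holds FPKM only, and no count test was run. FPKM depends on all other genes in a library, so a level can move when others do. All sample columns were used. Gene IDs were matched to RefSeq (16512 matched, 33 did not).

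Values were analysed as log2(FPKM + 1) with limma 3.58.1 (R 4.3.3, moderated test with an intensity trend, two-sided), with genes at 0 in all compared libraries dropped and Benjamini-Hochberg adjustment over all genes tested, called under 0.05. Each comparison used only its own groups, and genotype differences in the change with time used 12 libraries in 1 fit. The scripts were tested on simulated data. Tables and plots used Python 3.11.15, numpy 2.4.6, pandas 2.3.3 and matplotlib 3.10.9.

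The 8 genes, the 14 other lists (121 genes) and the tests were chosen with earlier results of these data known. All 8 genes were named, with the 3 genes most correlated with each, and of each list up to 4 genes with the widest change among those called at 24 h against 0 h in CON or called between genotypes, of which some are printed. Some list genes are not reported here. Alternatives were a pseudocount of 0.1, a mean of at least 1 FPKM, TPM, median-ratio scaling, a block on replicate number, all 18 libraries in 1 fit, and leaving out libraries. Libraries of 1 genotype with the same number were taken as the same mouse across times. Same-numbered CON and B-CKO libraries deviated together at 0 h (correlations across genes of 0.857, 0.474 and 0.793), and not in every pair at 24 h (0.0902 to 0.224) or 48 h (-0.0353 to 0.236).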

Additional observations from a re-analysis of the deposited data

Results flagged for a closer look

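Dusp6 lay below CON in every B-CKO library at 24 h and above CON in every B-CKO library at 48 h, and was picked out because its genotype differences at these times were of opposite sign. The difference between them was 0.37 on the log2 scale (limma, SE 0.108, adjusted p = 0.549), which did not pass over all genes.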

How the results depend on the processing

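Of 504 member fold changes under other settings, 479 kept their direction and their side of the threshold, 10 no longer passed, 14 newly passed and 1 reversed. Dusp7 at 24 h against 0 h in B-CKO reversed with TPM (-0.11), a scaling that moved all genes by -0.17 in that comparison, and the cause of the other changes was not tested. In the genotype comparison at 24 h, 1 member passed as reported, 2 with a pseudocount of 0.1, 2 among genes averaging 1 FPKM or more, 0 with all 18 libraries and 0 to 0 when libraries were left out. With the replicate number as a block 0 passed at 24 h (Dusp2 and Dusp10 both at adjusted p = 0.126), and with the block and that filter 3 did (Dusp2, Dusp5 and Dusp10). At 48 h, where 0 passed, 1 did among genes averaging 1 FPKM or more, and 1 with the block added. The block changed no other call of a member. In 48 h against 24 h, 6 passed in each genotype and 2 with all 18 libraries. Leaving out libraries gave 5 to 6 in CON and 4 to 6 in B-CKO. The highest adjusted p then reached 0.0600 (Dusp2) and 0.117 (Dusp5) in CON, and 0.0664 (Dusp2), 0.0589 (Dusp5) and 0.0888 (Dusp10) in B-CKO. At 24 h against 0 h, leaving out libraries gave 3 to 8 of the 8 members called in CON, against 6 as reported, and 4 to 7 in B-CKO, against 7.

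Of 744 fold changes with libraries left out, 645 held, 40 no longer passed, 6 newly passed and 53 reversed, in 24 results of which 0 had passed. The log2 ranges of those for B-CKO against CON at 0 h were -0.19 to 0.21 (Dusp1), -0.46 to 0.49 (Dusp2), -0.10 to 0.71 (Dusp4), -0.64 to 0.44 (Dusp5), -0.17 to 0.66 (Dusp7), -1.03 to 0.27 (Dusp10) and -0.61 to 0.31 (Dusp16). At 24 h they were -0.21 to 0.029 (Dusp1) and -0.047 to 0.12 (Dusp4), and at 48 h -0.16 to 0.0049 (Dusp1). For 24 h against 0 h they were -0.018 to 0.88 (Dusp7, CON) and -0.25 to 0.35 (Dusp7, B-CKO). For the genotype difference from 0 h to 24 h they were -0.33 to 0.066 (Dusp1), -0.75 to 0.20 (Dusp2), -0.66 to 0.15 (Dusp4), -0.77 to 0.31 (Dusp5), -0.12 to 0.069 (Dusp6), -0.81 to 0.019 (Dusp7), -0.83 to 0.47 (Dusp10) and -0.34 to 0.58 (Dusp16), and from 24 h to 48 h -0.069 to 0.16 (Dusp1), -0.23 to 0.053 (Dusp2), -0.0095 to 0.19 (Dusp5) and -0.17 to 0.018 (Dusp7).

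Without fragment counts, the counting error of the lowest levels (Dusp1 and Dusp5 after LPS) could not be given.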
